A study of Mus musculus with 6 samples.

Results

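The minichromosome maintenance (MCM) genes were followed in NIH3T3 mouse fibroblasts, the Normal cells of the study, with and without forskolin (FSK). The family was taken by gene symbol as Mcm2, Mcm3, Mcm4, Mcm5, Mcm6, Mcm7, Mcm8, Mcm9, Mcm10 and Mcmbp, and a gene was measured where a probe set was paired with that symbol alone. This held for 9 of the 10 genes, each with 1 probe set, among 16797 genes measured in all. For Mcm10 the annotation used here pairs no probe set, and it is not analysed here. NIH3T3 is an immortalized line, so the values describe cultured cells and not a tissue. Cells were plated in 25 mM glucose, moved after 16 h to 1 mM glucose and harvested 72 h later. The 3 arrays of untreated cells (N) had no FSK. The labels name no vehicle, and the study's description of the workflow gives DMSO to such cultures. The 3 arrays of treated cells (NF) came from cultures given 10 μM FSK at 24 h and once more at 48 h. FSK switches on adenylate cyclase, and the cAMP this makes activates PKA. By the labels, the arrays of a group are biological replicates.

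The proteins Mcm2 to Mcm7 form a ring of 6 different subunits, the motor of the helicase that opens DNA at replication forks. The ring is loaded onto origins before S phase by the origin recognition complex with Cdc6 and Cdt1, which is called licensing, and it is started by Cdc45, the GINS complex and the kinase of Cdc7 and Dbf4. Mcm8 and Mcm9 form a separate helicase that acts in homologous recombination, Mcm10 takes part in starting the fork, and Mcmbp binds MCM subunits. Genes of the ring are classical targets of E2F factors and are expressed more in dividing than in resting cells.

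Promoter sequence was read for the MCM genes to show what they share beside their products. RefSeq windows on GRCm38.p6, from 250 bases before to 50 bases after each start, were given for 9 of the 10 genes, all but Mcm4, with 2 starts for Mcm7. Each window was searched on both strands for 4 words of the E2F consensus, TTTCCCGC, TTTCGCGC, TTTGCCGC and TTTGGCGC. A word was present in 6 of the 9 genes, namely Mcm3, Mcm5, Mcm6, Mcm7, Mcm8 and Mcmbp, and in 2.60% of all 27025 genes with such windows. The matches are shown because an E2F word occurs in most of these genes and is uncommon among all genes, each on the strand that reads the word, with the word in capitals.
Mcm3, first: acttcccaagtTTTCCCGCcacggaagttt
Mcm3, second: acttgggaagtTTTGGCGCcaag
Mcm5: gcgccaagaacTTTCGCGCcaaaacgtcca
Mcm6, first: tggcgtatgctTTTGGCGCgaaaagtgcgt
Mcm6, second: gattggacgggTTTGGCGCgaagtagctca
Mcm7, first: tggacaccctgTTTCCCGCggttcgaaatt
Mcm7, second: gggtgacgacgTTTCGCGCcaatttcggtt
Mcm8: tttTTTGGCGCgtctatgacgc
Mcmbp: ggtggccgcgaTTTCCCGCcattgtgagaa
The Mcm3 stretches lie at chr1:20820275-20820304 (+ strand) and chr1:20820263-20820285 (- strand), and that of Mcm5 at chr8:75109345-75109374 (+). Those of Mcm6 lie at chr1:128359797-128359826 (-) and chr1:128359734-128359763 (-), and those of Mcm7 at chr5:138172030-138172059 (+) and chr5:138171849-138171878 (-). That of Mcm8 lies at chr2:132816169-132816190 (-) and that of Mcmbp at chr7:128740436-128740465 (-). In Mcm5 and in the first Mcm6 stretch a second word on the opposite strand overlaps the one shown. In the second Mcm7 stretch the word shares a base with a CCAAT box. Such a match is a description of letters and not a site shown to be bound.

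The cAMP response element TGACGTCA, the full palindrome recognised by CREB, was found in 1 of the 9 genes, Mcm5, and in 2.03% of all genes. The CCAAT box (CCAAT or its complement) was found in 8 of the 9, all but Mcmbp, and in 41.1% of all genes, and the CHR element TTTGAA in 1, Mcm2, and in 20.2%. The 250 bases before the start are shown for Mcm5, which holds the cAMP response element, and for Mcm6, which holds the most E2F words of the family, with all E2F, cAMP response and CCAAT matches in capitals.
Mcm5: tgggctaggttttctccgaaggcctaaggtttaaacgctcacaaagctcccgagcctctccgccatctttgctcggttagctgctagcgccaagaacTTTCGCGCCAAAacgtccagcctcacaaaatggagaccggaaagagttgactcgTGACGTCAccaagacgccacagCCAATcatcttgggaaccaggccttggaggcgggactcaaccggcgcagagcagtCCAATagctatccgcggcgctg
Mcm6: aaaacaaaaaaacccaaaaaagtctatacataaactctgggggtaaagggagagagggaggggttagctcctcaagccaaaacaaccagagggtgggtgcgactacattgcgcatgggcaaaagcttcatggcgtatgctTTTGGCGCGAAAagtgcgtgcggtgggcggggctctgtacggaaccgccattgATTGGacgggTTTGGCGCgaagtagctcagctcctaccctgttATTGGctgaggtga
These stretches lie at chr8:75109259-75109508 (+ strand) and chr1:128359706-128359955 (- strand). In Mcm5 the E2F words begin 153 and 149 bases before the start and the cAMP response element 99 bases before it. In Mcm6 the E2F words begin 110, 106 and 47 bases before the start.

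Values were log2 expression values made by the authors with RMA, and changes are given as NF minus N. The array of N replicate 1 stood apart from the others. Its values over all probe sets had an SD of 2.42, against 2.58 to 2.62 in the other 5 arrays, while the medians of the 6 arrays lay between 3.84 and 3.93. No 2 arrays held the same values, and Pearson's correlation over probe sets lay between 0.969 and 0.995 for the 15 pairs. The 8 fibroblast markers measured averaged between 9.17 and 9.76 on the N arrays and between 9.79 and 10.03 on the NF arrays, and the collagen gene Col3a1 was the 1 of them that passed the test (log2 change 1.33, adjusted p = 0.0157). Of 23 markers of epithelial, endothelial, leukocyte, muscle and fat cells, 21 lay below the median level of all probe sets, and 0 passed limma's adjustment (unadjusted, 0 were higher and 1 lower at a p under 0.05, and 1 and 1 by the methods' t-test). The part of these markers in the differences between groups was not tested, and values without N replicate 1 are given below.

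Most genes of the ring had higher levels in FSK-treated cells, 4 of the 6 past the test. Of the 9 MCM genes measured, Mcm3, Mcm4, Mcm5 and Mcm6 rose, by 2.58 to 3.68-fold, 0 fell and 5 did not pass the test (limma, Benjamini-Hochberg adjusted p under 0.05 over all 18197 probe sets tested). Among all genes 1.83% were called higher (307) and 0.72% lower (121), a split that a further quantile normalization moved to 497 and 373. At an unadjusted p under 0.05, 7 of the 9 were higher and 0 lower, against 8.33% and 5.49% of all genes, and by the methods' t-test the counts were again 7 and 0, against 5.95% and 5.13%. The mean was higher in NF for all 9, against 45.2% of all genes, and for 8 of the 9 every NF array lay above every N array, against 10.5%. For 0 of the 9 every NF array lay below every N array, against 9.7%, and 4 were at least 2-fold higher, against 1.93%. The study's text describes genes of the cell cycle and of DNA-related pathways as repressed by FSK in Normal cells. It relates this to earlier work of its authors in which FSK arrested proliferation. The direction given here is that of the arrays as labelled, opposite to that text. Whether the labels or the text hold could not be settled here, so the rise is not given as an established effect of FSK. In these bulk samples, a larger share of cells that express a gene and more of its RNA per cell cannot be told apart.

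The changes of Mcm4 and Mcm6 were the largest of the family. Mcm4, a subunit whose phosphorylation accompanies helicase activation, had log2 values of 4.81, 6.42 and 6.12 in N replicates 1 to 3 and of 7.74, 7.54 and 7.70 in NF. The NF arrays lay close together and 1.12 or more above every N array, while N replicate 1 lay far below the other N arrays. The group values were 5.78 ± 0.85 (SD, n = 3) and 7.66 ± 0.11 (SD, n = 3), 3.68-fold higher in NF (log2 change 1.88, standard error 0.37, adjusted p = 0.0446). Without N replicate 1 the log2 change was 1.40. Mcm6 had log2 values of 5.52, 6.31 and 5.63 in N and of 7.64, 7.31 and 7.65 in NF. Its groups were separated by 1.00, and N replicate 2 was the highest of the untreated arrays. The log2 change was 1.71 (standard error 0.22, 95% interval 1.20 to 2.23, 3.28-fold, adjusted p = 0.0132), the lowest adjusted p of the family.

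Mcm3 and Mcm5 also rose. The log2 values of Mcm3 were 4.80, 5.46 and 5.17 in N and 6.87, 6.32 and 6.64 in NF. The groups did not overlap, and the array numbered 2 was the highest of N and the lowest of NF. Mcm3 was 2.77-fold higher in NF (log2 change 1.47, 95% interval 0.99 to 1.95, adjusted p = 0.0166). Mcm5, which forms with Mcm2 the gate through which the ring is loaded, had log2 values of 4.84, 5.57 and 5.09 in N and of 6.60, 6.36 and 6.65 in NF. The lowest NF array exceeded the highest N array by 0.78. It was 2.58-fold higher in NF (log2 change 1.37, standard error 0.20, adjusted p = 0.0185).

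Mcm2 and Mcm7 completed the ring with smaller differences that did not pass the test. Mcm2 had log2 values of 6.85, 7.37 and 7.76 in N and of 8.20, 8.14 and 8.31 in NF. The groups were separated by 0.38, with N replicate 3 nearest to the treated arrays. The log2 change was 0.89 (standard error 0.22, 95% interval 0.38 to 1.39, adjusted p = 0.0921). Mcm7 had log2 values of 6.16, 6.61 and 7.01 in N and of 7.58, 7.48 and 7.32 in NF. Here too N replicate 3 was the highest untreated array, and the gap was 0.31. The log2 change was 0.86 (standard error 0.21, 95% interval 0.37 to 1.36, adjusted p = 0.0913). Both passed without N replicate 1, with log2 changes of 0.65 each (adjusted p = 0.0402 and 0.0483, where leaving out each array in turn and the other settings tried gave values from 0.00851 to 0.404 for Mcm2 and from 0.00834 to 0.399 for Mcm7), and both passed after a further quantile normalization. Whether the change of Mcm2 and Mcm7 differed from that of the other subunits was not tested.

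**Figure D1:**
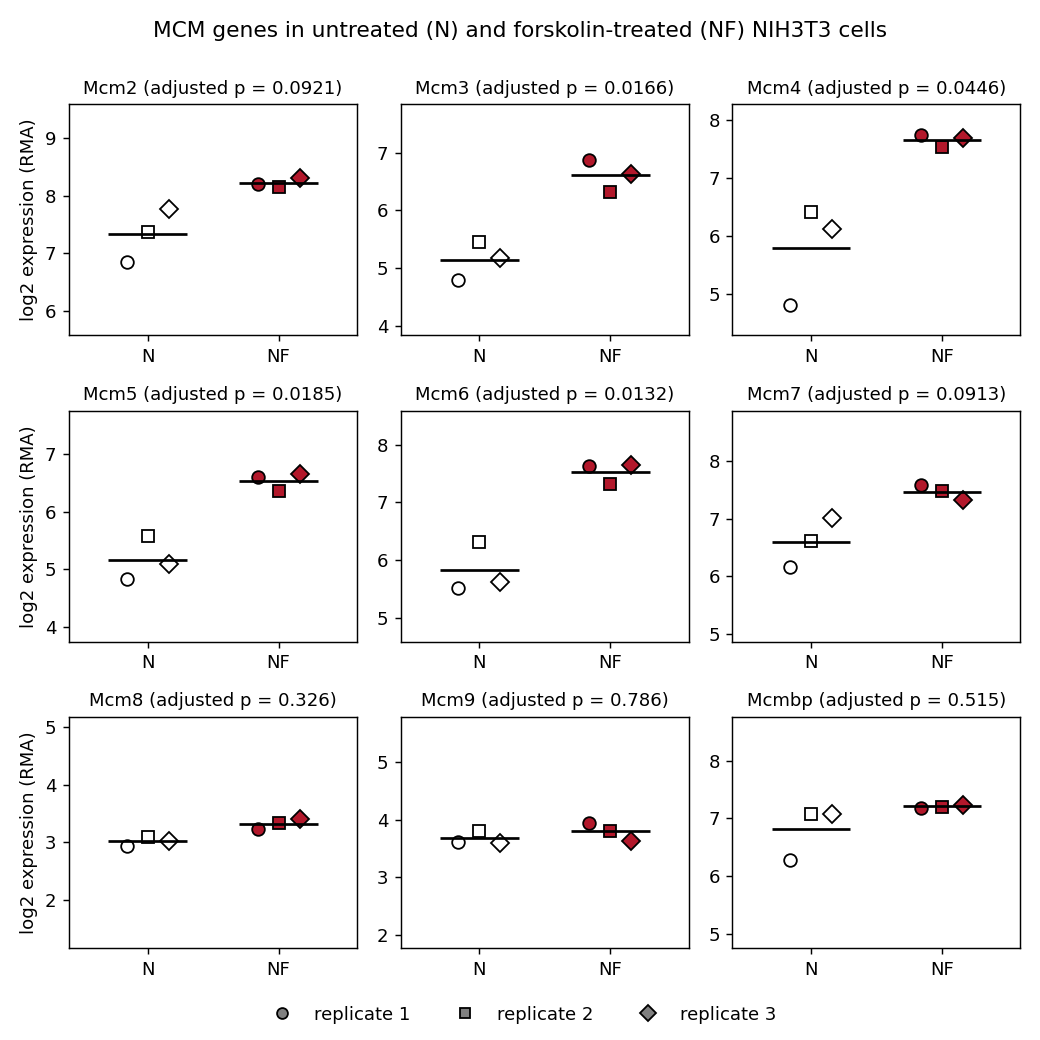
Log2 expression (RMA, vertical axis) of the 9 measured MCM genes on the arrays of N (open) and NF (filled), each point being an array and each symbol a replicate number, with a line at the group mean, and the same span of the axis in each panel. The NF points of Mcm3, Mcm4, Mcm5 and Mcm6 lie well above the N points, those of Mcm2 and Mcm7 by 0.38 and 0.31, and the groups of Mcm9 overlap.

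Within the ring, the untreated arrays varied more than the treated ones. The SD of the 6 subunits lay between 0.33 and 0.85 in N and between 0.08 and 0.28 in NF. N replicate 1 was the lowest of all arrays for 8 of the 9 MCM genes, Mcm9 being the exception. This array stood apart over all probe sets too, and for how many of all genes it is the lowest was not counted. It was also the lowest for the fibroblast markers Col1a1, Col1a2, Col3a1, Vim, Fn1, Thy1 and Pdgfrb, though not for S100a4. For the ring subunits N replicate 1 lay below the mean of N replicates 2 and 3 by between 0.45 (Mcm6) and 1.46 (Mcm4). The highest untreated array was N replicate 2 for Mcm3, Mcm4, Mcm5 and Mcm6, and N replicate 3 for Mcm2 and Mcm7. Over the 6 arrays Pearson's correlation between ring subunits lay between 0.839 (Mcm6 and Mcm7) and 0.998 (Mcm5 and Mcm6) for the 15 pairs, with 0.974 for Mcm2 and Mcm7. These correlations are a description over 6 arrays of the same 2 groups, and they hold the difference between groups and the position of N replicate 1.

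The MCM genes outside the ring differed little or not detectably. Mcm8 had log2 values of 2.94, 3.10 and 3.03 in N and of 3.24, 3.34 and 3.40 in NF. The treated arrays were all higher, by as little as 0.14, and the mean level lies below the median of all probe sets (3.70), where the array measures least well. The log2 change was 0.31 (standard error 0.12, 95% interval 0.02 to 0.59, adjusted p = 0.326). Mcm9, its partner, had log2 values of 3.62, 3.81 and 3.60 in N and of 3.95, 3.81 and 3.63 in NF. These groups overlapped, with a log2 change of 0.12 (95% interval -0.20 to 0.44, adjusted p = 0.786).

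Mcmbp, the binding protein of the subunits, had log2 values of 6.27, 7.07 and 7.08 in N and of 7.18, 7.20 and 7.23 in NF. All treated arrays were higher, but the gap was 0.10, N replicates 2 and 3 lay close to them and N replicate 1 alone was far lower. The log2 change was 0.40 (95% interval -0.11 to 0.91, adjusted p = 0.515), and it was 0.13 without N replicate 1.

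The number of MCM genes that rose depended on the arrays used. All 6 ring subunits rose without N replicate 1, and also with each array weighted by its quality. The weight was 0.21 for N replicate 1 and between 0.69 and 2.28 for the others. Over all genes these 2 fits called 492 (2.93%) and 675 (4.02%) higher, against 307 (1.83%) as reported. Without N replicate 2 the same 4 genes rose as with all arrays, against 1.62% of all genes. Without NF replicate 2 Mcm3, Mcm5 and Mcm6 did (0.899% of all genes), and without N replicate 3 Mcm6 alone (0.625%). With NF replicate 1 or NF replicate 3 left out, 0 of the 9 passed limma's adjustment, where 1 and 2 genes of all 16797 passed. In each case 6 of the 9 were higher at an unadjusted p under 0.05, and the share of all genes at that threshold was not counted. The log2 change of each of the 9 genes stayed above 0 in every fit run, and its range was 1.40 to 2.20 for Mcm4, 1.45 to 1.96 for Mcm6, 1.30 to 1.62 for Mcm3 and 1.13 to 1.57 for Mcm5.

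**Figure D2:**
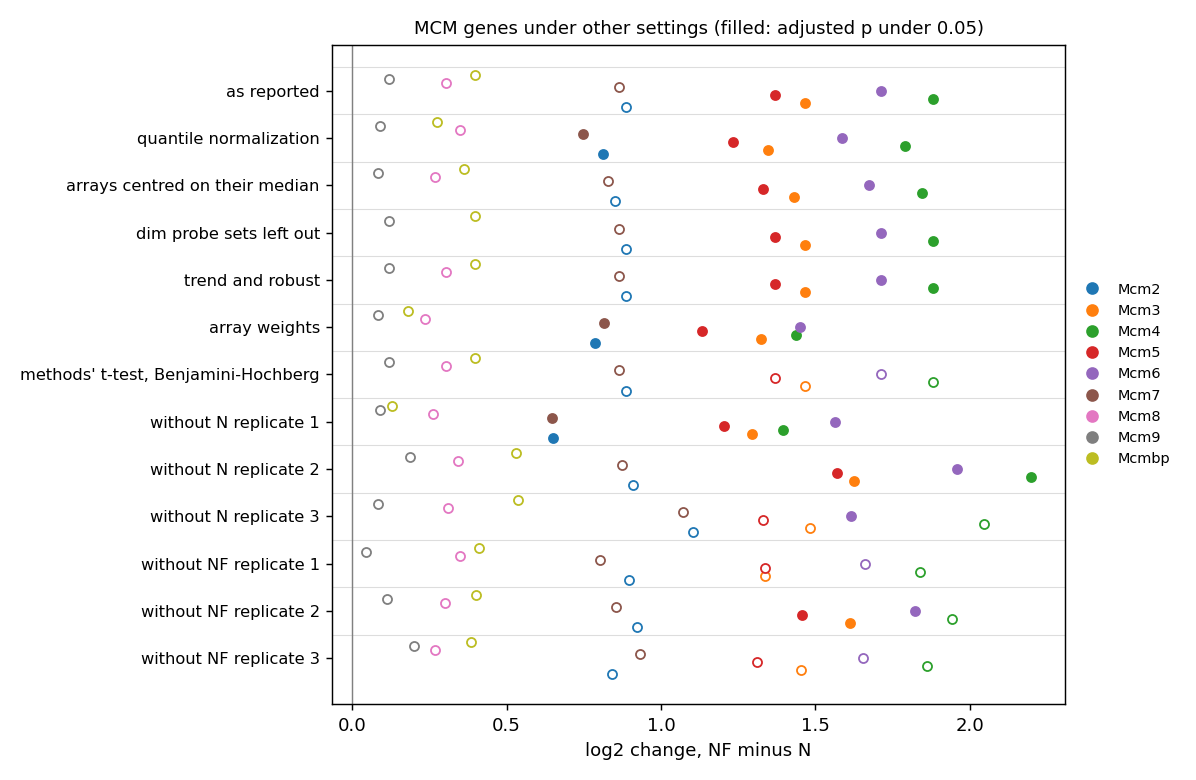
Log2 change, NF minus N (horizontal axis), of the 9 measured MCM genes as reported and under other settings (rows), filled where the adjusted p is under 0.05. With a block for replicate number, which is not drawn, 0 of the 9 passed (0.375% of all genes were higher). All points lie to the right of 0, the calls of Mcm3, Mcm4, Mcm5 and Mcm6 are lost with the methods' t-test and when NF replicate 1 or NF replicate 3 is left out, 3 of them when N replicate 3 and that of Mcm4 when NF replicate 2 is left out, and Mcm2 and Mcm7 are called without N replicate 1, with array weights and after quantile normalization.

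Genes whose products load, start and accompany the helicase were taken as a list of 37 partner genes, of which 34 were measured. Like the family, the list was chosen with earlier results of these data known, so its shares beside those of all genes are a description. Of the 34, 7 rose, 0 fell and 27 did not pass the test, which is 20.6% higher against 1.83% of all genes. At an unadjusted p under 0.05, 17 of the 34 were higher and 3 lower by limma (8.33% and 5.49% of all genes), and 10 and 3 by the methods' t-test (5.95% and 5.13% of all genes). The median log2 change was 0.38, against -0.03 over all genes and 1.42 over the 6 ring subunits. With N replicate 1 left out 10 rose, where 2.93% of all genes did. With N replicate 2, N replicate 3 or NF replicate 2 left out 2 rose in each case, against 1.62%, 0.625% and 0.899% of all genes. By limma 0 passed when NF replicate 1 or NF replicate 3 was left out, where 1 and 2 of all 16797 genes were higher. Unadjusted, 14 and 13 partner genes were higher there at a p under 0.05. The unadjusted share of all genes was not counted in those fits.

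Among 8 measured genes of origin licensing, 1 rose (12.5%, against 1.83% of all genes). Unadjusted, 3 were higher and 2 lower by limma at a p under 0.05 (8.33% and 5.49% of all genes). By the methods' t-test 1 was higher and 2 lower (5.95% and 5.13% of all genes). Orc1, the subunit of the origin recognition complex whose level follows the cell cycle, had log2 values of 3.50, 3.66 and 4.05 in N and of 4.95, 4.49 and 4.82 in NF. All treated arrays were higher, and the log2 change was 1.01 (standard error 0.19, adjusted p = 0.0378). The other subunits did not follow it. Orc2 had a log2 change of -0.67 (adjusted p = 0.133) and Orc4 one of -0.52 (adjusted p = 0.130), with every treated array below every untreated one in both, and Orc3, Orc5 and Orc6 had changes between -0.12 and 0.06. The loading factor Cdt1 had log2 values of 5.24, 6.57 and 6.63 in N and of 7.12, 7.40 and 7.12 in NF, so that the log2 change was 1.07 (adjusted p = 0.205). In it N replicate 1 again lay far below the rest, and it passed without that array. Cdc6, the other loading factor, had a log2 change of 0.66 (adjusted p = 0.213).

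Of 12 genes of helicase activation, 5 rose (41.7%, against 1.83% of all genes). Unadjusted, 8 were higher and 0 lower by limma at a p under 0.05 (8.33% and 5.49% of all genes). By the methods' t-test 7 were higher and 0 lower (5.95% and 5.13% of all genes). Ticrr, which brings Cdc45 to origins, had log2 values of 3.51, 4.11 and 3.96 in N and of 5.14, 5.16 and 5.12 in NF. Its treated arrays nearly coincide and stand 1.01 or more above the untreated ones, for a log2 change of 1.28 with adjusted p = 0.0143. Its partner Topbp1, a scaffold of origin firing and of checkpoint signalling, had a log2 change of 1.17 (adjusted p = 0.0360) and Dbf4, the regulatory subunit of the Cdc7 kinase that phosphorylates MCM subunits, one of 0.93 (adjusted p = 0.0432). The kinase subunit Cdc7 had a log2 change of 0.03 at a level below the median of all probe sets. Cdc45, which with GINS turns the ring into an active helicase, had log2 values of 4.21, 4.63 and 4.80 in N and of 5.42, 5.36 and 5.49 in NF, a log2 change of 0.88 (adjusted p = 0.0432). Of the 4 GINS subunits Gins2 rose (log2 change 0.84, adjusted p = 0.0463), while Gins1, Gins3 and Gins4 differed by 0.89, 0.70 and 0.44 on the log2 scale (adjusted p = 0.0686, 0.140 and 0.274) with every treated array above every untreated one. The mean level of Gins1 lay below the median of all probe sets. Mtbp, which works with Ticrr, had a log2 change of -0.67 with overlapping groups (adjusted p = 0.392).

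At the fork, 1 of 5 measured genes rose (20%, against 1.83% of all genes). Unadjusted, 4 were higher and 0 lower by limma at a p under 0.05 (8.33% and 5.49% of all genes). By the methods' t-test 2 were higher and 0 lower (5.95% and 5.13% of all genes). Wdhd1, which links the helicase to DNA polymerase alpha, had log2 values of 4.31, 4.42 and 4.33 in N and of 5.15, 4.98 and 5.03 in NF, groups that are tight and apart, and its log2 change of 0.70 had an adjusted p of 0.0297. Timeless and Tipin, which form the fork protection complex, differed by 0.61 and 0.46 on the log2 scale (adjusted p = 0.167 and 0.308), and the checkpoint adaptor Clspn one of 0.56 (adjusted p = 0.321), with N replicate 1 at the level of the treated arrays. Of 5 genes that act in unloading the helicase and of 4 measured partners of Mcm8 and Mcm9, 0 passed limma's adjustment (1.83% of all genes were higher and 0.72% lower). At an unadjusted p under 0.05 those that differed by limma were Traip (0.48) and Hrob (0.49), higher, and Cul2 (-0.32), lower. By the methods' t-test 0 were higher and 1 lower. Among all genes 8.33% were higher and 5.49% lower by limma, and 5.95% and 5.13% by the methods' t-test. The mean levels of Traip and Hrob, and that of Timeless, lay below the median of all probe sets, where the array measures least well. Lrr1 and Faf1, which act in unloading, differed by 0.31 and -0.28 on the log2 scale with overlapping groups. Hrob brings the Mcm8 and Mcm9 helicase to sites of recombination, and its groups overlapped, as did those of Mre11, Rad50 and Nbn (log2 changes 0.15, 0.15 and -0.12).

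**Figure D3:**
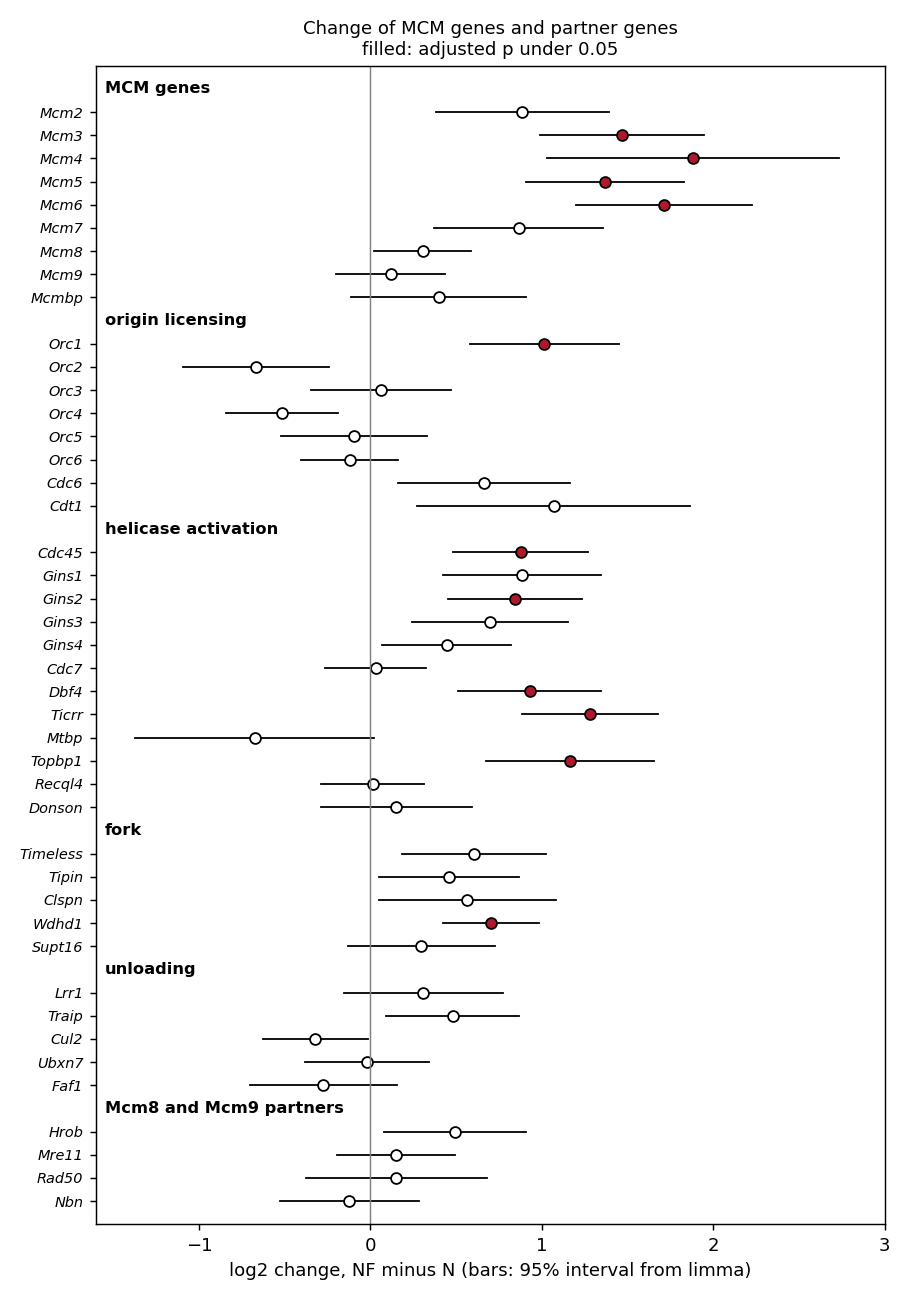
Log2 change, NF minus N, with its 95% interval from limma (horizontal axis), of the 9 MCM genes and the 34 measured partner genes ordered by role (rows), filled where the adjusted p is under 0.05. Filled points lie among the ring subunits and in licensing, activation and fork genes, all to the right of 0, while 9 partner genes lie to the left of 0, Mtbp, Orc2 and Orc4 farthest.

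**Figure D4:**
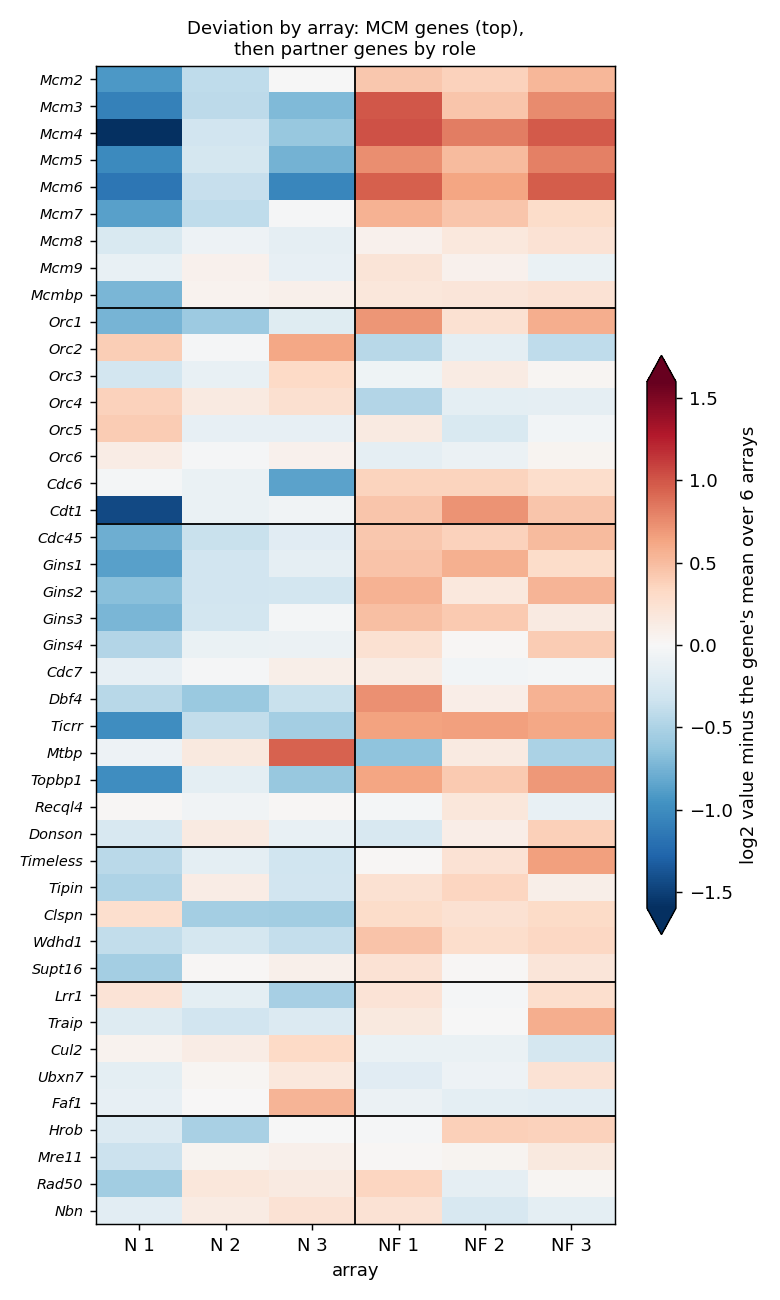
Deviation of each gene's log2 value from its mean over the 6 arrays (colour, saturated beyond 1.6 in size) for the MCM genes and the partner genes by role (rows) on each array (columns). The ring subunits average between 0.54 and 0.78 on the NF arrays, -0.36 and -0.53 on N replicates 2 and 3 and -1.16 on N replicate 1. That array is also the lowest for activation (-0.53), fork (-0.32) and licensing genes (-0.15) and for the Mcm8 and Mcm9 partners (-0.32). For the unloading genes NF replicate 2 is the lowest (-0.07).

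Genes whose values ran most like the mean of Mcm2 to Mcm7 over the 6 arrays were sought among 8261 other genes at or above the median level. The 6 closest were Kif2c, a kinesin of the mitotic spindle, Mki67, the antigen used to mark dividing cells, Cdca3, Snai1, Tcaf2 and Ttyh3, with Pearson's correlation between 0.996 and 0.999. They had log2 changes between 0.99 (Snai1) and 2.42 (Kif2c). With 6 arrays in 2 groups a high correlation is easily reached, and 428 of the 8261 genes (5.18%) had one of 0.95 or more.

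The neighbours of the MCM genes on their chromosomes were looked up by position. Of the 20 protein-coding genes that flank the 10 family genes in RefSeq, 17 were measured, and 0 of these rose and 1 fell (limma; 1.83% and 0.72% of all genes). Unadjusted, 2 were higher and 3 lower at a p under 0.05 (8.33% and 5.49% of all genes), and whether the neighbours differ from the MCM genes was not tested. The 1 that fell was Hmox1, the haem oxygenase beside Mcm5 (log2 change -1.67, adjusted p = 0.0201). Prkdc, the catalytic subunit of the DNA-dependent protein kinase, lies fewer than 1000 bases from Mcm4. It had log2 values of 4.25, 5.16 and 4.99 in N and of 5.79, 5.45 and 5.80 in NF, the same order of groups with a log2 change of 0.88 that did not pass the test (adjusted p = 0.131). Trmt6 beside Mcm8, Inpp5f beside Mcmbp, and Cops6 and Ap4m1 beside Mcm7, each as close, had log2 changes between 0.00 and 0.28 with overlapping groups.

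The Mcm7 gene also contains 3 microRNA genes, each with its own probe set on the array. A mature form of each is shown with bases 2 to 8, the seed, in capitals, as miR-93 and miR-106b share it.
miR-25-3p: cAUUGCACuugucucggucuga
miR-93-5p: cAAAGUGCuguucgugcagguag
miR-106b-5p: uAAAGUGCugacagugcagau
The probe sets of Mir25, Mir93 and Mir106b differed by 0.17, 0.20 and 0.02 on the log2 scale (adjusted p = 0.632, 0.670 and 0.974), against 0.86 for Mcm7. The levels of Mir93 and Mir106b lay below the median of all probe sets, and a probe set in a gene's intron cannot separate the hairpin from the unspliced transcript of its host.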

How the data were processed

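Total RNA of NIH3T3 cells was measured on 6 Affymetrix arrays, 3 of N and 3 of NF. The deposited values are on the log2 scale and were made by the authors with RMA in the R/Bioconductor package oligo, which subtracts background, brings arrays to a common distribution and summarizes probe sets. The versions, and which arrays were normalized together, are not given in the sources used here. The authors kept probe sets that have an Entrez gene, 22035 in the table. Of these, 18197 are paired with 1 symbol in the annotation of the platform, 1260 with several and 2578 are not listed, and the 18197 were tested. Through Entrez identifiers 18187 matched a gene of the RefSeq table given, and 0 symbols changed in that step. Mre11 was found under Mre11a, its symbol there. The fit was limma 3.58.1 in R 4.3.3 (lmFit and eBayes, prior degrees of freedom 4.00), with Benjamini-Hochberg adjustment over the 18197 and a threshold of 0.05. Of several probe sets for a gene, the one with the lowest p was used, while each MCM and partner gene had 1. Over the probe sets in the table the arrays still differed in spread, with an SD of 2.42 for N replicate 1 against 2.58 to 2.62 for the others. As far as arrays were brought to a common distribution, any change common to all genes is hidden.

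The members and lists were chosen with earlier results of these data known. The genes named are all members, up to 4 partners of each role with the lowest p and those called, and the 6 genes closest in pattern. Other partners named (the remaining subunits of named complexes, Cdc6, Cdc7, Mtbp), the neighbouring genes and the microRNAs were chosen after values were seen. The results were recomputed with a block for replicate number, quantile normalization, median centring and removal of dim probe sets. Further fits used the brightest probe set of a gene, trend and robust estimation, array weights and the methods' t-test. Each array was also left out in turn. The study names limma for its arrays, and the methods' t-test comes from its general statistics. With 6 arrays, precision is limited by their number.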

Additional observations from a re-analysis of the deposited data

How the results depend on the processing

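Recomputed under the 15 alternatives, each log2 change of an MCM gene kept its direction, 105 also kept their side of the threshold, 20 fell short of it and 9 came to pass it. For the methods' t-test without adjustment the threshold was applied to the unadjusted p, and Mcm2, Mcm7 and Mcm8 came to pass it there. Mcm8 did so in that fit alone. The number of MCM genes higher in NF, 4 as reported, was 0 with the methods' t-test after adjustment and 7 without adjustment, and between 0 and 6 when an array was left out. The number of partner genes higher in NF, 7 as reported, was 4 with trend and robust estimation, 11 with array weights, 0 with the methods' t-test after adjustment, and between 0 and 10 when an array was left out. The number of partner genes lower in NF was 0 in each adjusted fit and 3 by the methods' t-test without adjustment, and that of MCM genes lower in NF was 0 throughout. With the replicate number as a block, 0 MCM genes and 0 partner genes passed by limma, and among all genes 63 were higher and 17 lower instead of 307 and 121. At an unadjusted p under 0.05, 6 MCM genes and 17 partner genes were higher with the block. The unadjusted share of all genes was not counted in that fit. Same-numbered arrays of both groups had deviations that correlated at -0.0748, -0.0780 and -0.0736, so the numbers gave no sign of pairing. Without dim probe sets, Mcm8 could not be given. The brightest probe set changed no MCM or partner value, since each gene had 1. Over all genes, quantile normalization gave 497 higher and 373 lower, array weights 675 and 493, the methods' t-test after adjustment 1 and 0, and leaving out an array between 1 and 492 higher and between 0 and 430 lower. Only 3 arrays a group limit the precision, and the causes of these shifts were not tested.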
